A study of Homo sapiens with 6 samples.

Results

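Control WPMY-1 cells were described at baseline from their 3 RNA-seq libraries, which are 3 of the 6 libraries of the series. The members were chosen by label alone: they are the libraries of the group named shCtrl, and no measured value entered the choice. WPMY-1 is an established line of immortalised human cells from the stroma of a normal prostate, known as a myofibroblast line. The cells carried the empty pLKO1 lentiviral vector, were selected with puromycin, and grew in DMEM with 5% fetal bovine serum. Lentivirus had been packaged in HEK293T cells, a human embryonic kidney line. The series design calls the 3 libraries independent biological replicates, and nothing given here says whether they came from separate transductions or clones, so their spread may be partly technical. The other 3 libraries come from cells with a hairpin against CAVIN1 and are not analysed here.

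Prostate stroma is the fibromuscular tissue around the epithelial ducts. It is made of fibroblasts, smooth muscle cells and cells of intermediate phenotype called myofibroblasts, which lay down collagen and fibronectin, pull on the matrix through actin and myosin, and exchange growth factors with the epithelium. Caveolae, the small membrane pits coated by caveolins and cavins, are abundant in such cells.

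The deposited values are FPKM, fragments per kilobase of transcript scaled to the mapped fragments of the library. FPKM divides by length, so levels can be set side by side between genes, and each value below is an FPKM level unless another quantity is named. Values for a gene are given in the order of replicates 1, 2 and 3, and a mean is followed by the SD (n = 3). A gene was counted as expressed at a mean FPKM of at least 1. With 1 group of 3 libraries there was no comparison between groups to test. A sign-flip test over 3 libraries could not go below p = 0.25 (two-sided, exact), so levels and their spread are given without p-values.

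A mean FPKM of at least 1 was reached by 12647 of 33117 rows of the table, which is 38.2% of all rows. Among protein-coding genes the count was 11227 of 19171, or 58.6%, the background against which the count of each gene list below is to be read. The number of protein-coding genes at or above 1 was 11252, 11185 and 11225 in the 3 libraries. It was 11062 when the gene had to reach 1 in every library, and 11375 when 1 library sufficed. Another 2591 protein-coding genes were listed at 0 in all 3 libraries. Levels between libraries were closely alike across the 11227 expressed genes, with Pearson's r of log2(FPKM + 0.5) between 0.992 and 0.997. Genes are not independent replicates, and this correlation is a description.

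Most of the expressed genes had modest levels. The median over the 11227 genes was 11.5 FPKM, with quartiles at 4.98 and 26.1. A mean of at least 10 was reached by 6190 protein-coding genes, at least 100 by 638 and at least 1000 by 70. Those 70 genes held 26.4% of the protein-coding FPKM sum, and the 638 genes held 59.3%. The mRNA pool of these cells, as FPKM measures it, was thus concentrated in a small set of genes.

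The libraries were made from total RNA, and noncoding RNA filled a large share of the FPKM sum. Protein-coding rows held 47.7%, 62.6% and 42.0% of it in replicates 1, 2 and 3. The highest share was that of replicate 2. The FPKM sum of these rows was 429506, 475341 and 438564, also highest in replicate 2. Statements below that a gene was highest or lowest in replicate 2 use values not scaled for this sum. The small nuclear RNA RN7SK, which restrains transcription elongation, was listed at 0 FPKM in replicate 2, against 151555 in replicate 1 and 150089 in replicate 3. RN7SL2, an RNA of the signal recognition particle, was listed at 0 in replicates 1 and 2 and at 149873 FPKM in replicate 3. Such a 0 can be a failed estimate. Replicate 2, with the highest protein-coding share, was the only library listed at 0 for both RNAs. The FPKM sum over all rows holds these values, so the share of each class, protein-coding included, is uncertain. In all, 148 rows were listed at 0 in 1 or 2 libraries and at 10 or more in another. None of those 148 rows was protein-coding. Small nucleolar RNAs held 10.04% ± 1.02 (SD, n = 3) of the sum and rows classed as long noncoding RNA 5.04% ± 1.27. Most of the latter was RMRP, a short RNA that the annotation puts in this class. It read 44381, 40900 and 32973 FPKM, against class sums of 49110, 45858 and 37766.

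Several noncoding RNAs with no zeros were very abundant. RMRP, the RNA of a mitochondrial RNA-processing endonuclease, read 44381, 40900.0 and 32973 FPKM. RPPH1, the RNA of ribonuclease P, read 26004, 23673 and 22968, and RNY3, a Y RNA, read 24609.8, 32627 and 24914. RMRP was lowest in replicate 3, and RNY3 was highest in replicate 2. FPKM values of such short RNAs rest on a small effective length and are less certain than those of mRNAs. Among longer noncoding RNAs, the nuclear RNA MALAT1 read 372, 251 and 369, lowest in replicate 2. TERC, the RNA template of telomerase, read 241, 239 and 225, and its values lay close together.

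The most abundant mRNAs served mainly protein synthesis. Of the 25 protein-coding genes with the highest mean, 18 encoded ribosomal proteins, and the other 7 were EEF1A1, GAPDH, ANXA2, TMSB10, ACTB, EEF1G and LGALS1. RPS24, a protein of the small ribosomal subunit, ranked first at 5799.8, 6737 and 5817. EEF1A1, the factor that brings aminoacyl-tRNA to the ribosome, read 2849, 3565 and 2938. Both were highest in replicate 2. All 79 ribosomal protein genes on the list were expressed, 78 of them at a mean of at least 100, and together they held 22.5% ± 0.646 of the protein-coding sum. All 22 listed translation factors were expressed, with a share of 2.01%. Ribosomal proteins, EEF1A1, GAPDH and ACTB have many processed pseudogenes, so their exact levels are uncertain.

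**Figure D1:**
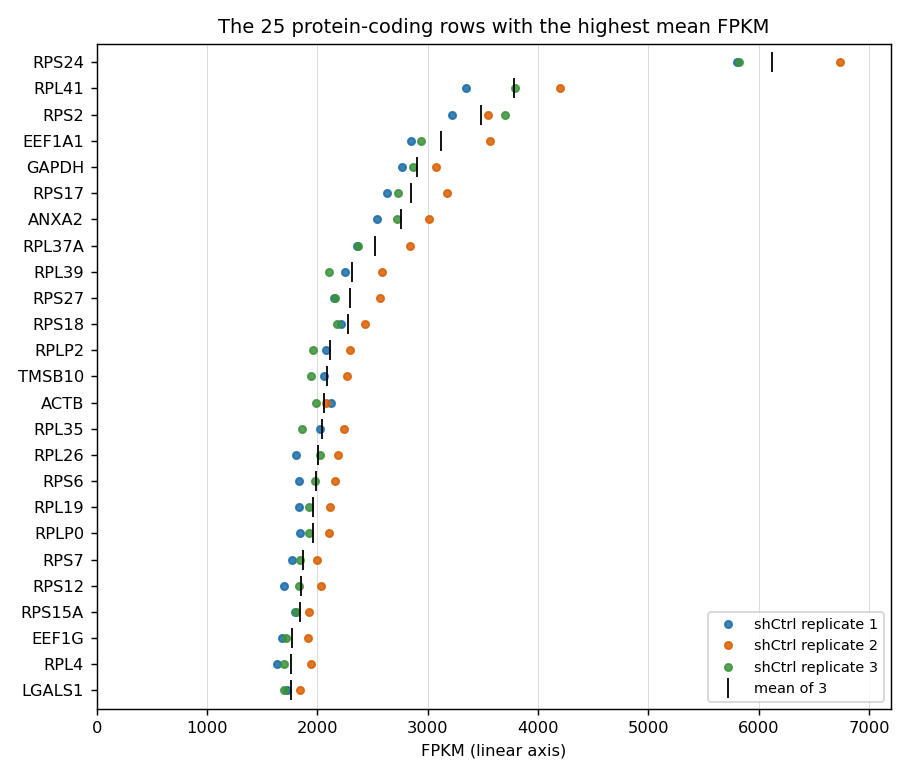
FPKM (linear axis) of the 25 protein-coding genes with the highest mean, in each of the 3 shCtrl libraries (coloured points) with the mean of the 3 as a black tick. RPS24 stands apart at a mean of 6118, and replicate 2 is the highest library for each of the 25 genes except RPS2 and ACTB. Replicate 2 also had the highest protein-coding FPKM sum.

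Besides the elongation factors and GAPDH, the non-ribosomal genes at the top encoded membrane-binding, cytoskeletal and secreted proteins. ANXA2, a calcium-dependent membrane-binding annexin, read 2542, 3009 and 2718 and held rank 7 among the 19171 protein-coding genes. TMSB10, an actin-binding thymosin, read 2061, 2268 and 1939.9, and LGALS1, a secreted galectin, read 1729, 1844 and 1699. TMSB10 was 1.92 ± 0.0524 times the level of its relative TMSB4X and stood above it in 3 of 3 libraries. Among the S100 calcium-binding proteins, S100A6 was the highest at 409.9, 449 and 431, whereas S100A4, often used as a fibroblast marker, read only 2.61, 3.18 and 3.36. The 35 listed annexins, galectins, thymosins and S100 proteins, of which 23 were expressed, held 2.27% of the protein-coding sum.

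Histone genes formed a further block of short, abundant mRNAs. They were not on the fixed lists and were looked at after their values were seen. Of 70 histone rows, 59 were expressed, and together they held 8.64% ± 0.172 of the protein-coding sum. Of the 100 protein-coding genes with the highest mean, 57 were ribosomal proteins and 22 were histones. Copies of a histone gene are near-identical, so single histone rows are uncertain, as is their split between genes.

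Surface markers of mesenchymal cells were mixed. Of 13 such genes 7 were expressed (53.8%), a share near the 58.6% of all protein-coding genes, and 4 reached a mean of 10. THY1, the CD90 glycoprotein of fibroblasts, led with 156, 172 and 154, followed by ALCAM with 64.6, 69.96 and 62.7. CD44, the hyaluronan receptor, read 45.1, 30.2 and 40.9 and was lowest in replicate 2. The ranges of THY1, ALCAM and CD44 did not overlap. MCAM, an adhesion molecule of perivascular and smooth muscle cells, read 24.5, 25.4 and 23.2.

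Other fibroblast surface genes were low. ENG, a TGF-beta co-receptor, had a mean of 3.81 ± 1.04 and NT5E, an ecto-nucleotidase, of 2.57 ± 0.166. Both belong to the standard surface panel of cultured mesenchymal cells, together with THY1. FAP, a protease of activated fibroblasts, read 0.737, 0.804 and 0.677, which is under 1 in every library. CD34, found on tissue-resident fibroblasts, had a mean of 0.160 ± 0.0365, and PDPN, the fibroblast glycoprotein podoplanin, was listed at 0 in all 3 libraries.

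Genes known from prostate stroma in tissue were mostly at or near 0. Only 3 of 16 were expressed. CHRDL1, a secreted antagonist of bone morphogenetic proteins, read 52.6, 63.4 and 54.6. The chemokine CXCL12 read 30.96, 29.8 and 28.2, and the Wnt antagonist SFRP1 read 10.6, 10.6 and 10.8, with nearly equal values in the 3 libraries. The other 13 had means under 1, with WNT2 the highest of them at 0.204 ± 0.0280. C7, SFRP2, PENK, HSD11B1, FGF10 and SRD5A2 were listed at 0 in all 3 libraries. In these lists, single surface markers such as THY1 were thus high, and most of the genes listed for prostate stroma were under 1. The share of surface markers expressed was near that of all protein-coding genes and gives no reading of the stromal label. Genes of the matrix, of intermediate filaments and of cadherins are described below and are not part of these lists.

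Markers of other cell types were checked with 72 genes, of which 11 were expressed, a share of 15.3% against 58.6% over all protein-coding genes. In bulk RNA, a few cells of another type and a low level in every cell cannot be told apart. Luminal prostate epithelium was read from 14 genes, of which 5 were expressed (35.7%). KLK3 and KLK2, the kallikreins secreted by luminal cells, TMPRSS2, MSMB and FOLH1 were listed at 0 in all 3 libraries. FOXA1, a pioneer factor of luminal cells, read 1.33, 1.20 and 1.16, and SLC45A3, of the same list, read 1.35, 1.03 and 1.19. EPCAM, an epithelial adhesion molecule, was under 1 at 0.356, 0.481 and 0.567. KRT18 and KRT8, which belong to the same list, were high and are described with the intermediate filaments.

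Basal, endothelial and blood cell genes were mostly under 1. TP63, the defining transcription factor of basal cells, and KRT14 were listed at 0 in all 3 libraries, and KRT5 had a mean of 0.0857 ± 0.0450. The only 1 of 8 basal genes that was expressed was ITGB4, an integrin chain of hemidesmosomes, at 1.26, 1.01 and 1.27. None of the 9 endothelial genes was expressed, their summed level lay between 0.663 and 1.15 FPKM in a library, and PECAM1, the endothelial junction protein, had a mean of 0.0553 ± 0.0217. The 13 genes of myeloid and lymphoid cells summed to between 7.88 and 8.94 FPKM, most of it from CD68. PTPRC, the CD45 antigen of blood cells, had a mean of 0.0409 ± 0.0219, and CD3E, a T cell receptor chain, was listed at 0. CD68, a lysosomal glycoprotein used as a macrophage marker, was above 1 at 6.44, 6.91 and 5.97. CD14, the lipopolysaccharide co-receptor of monocytes and macrophages, was the only other of the 13 that was expressed, at 1.01, 1.35 and 1.30, and the macrophage genes TYROBP and CSF1R had means of 0 and 0.0972 ± 0.0321. None of the 7 skeletal and cardiac muscle genes reached 1, and their levels summed to between 0.0294 and 0.0984 FPKM in a library.

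Single members of the neural lists were exceptions. TUBB3, a tubulin of neurons that many cultured cells express, read 30.98, 34.6 and 32.03, and ENO2, the neuronal enolase isoform, read 30.6, 29.8 and 31.9. CHGA, the defining granule protein of neuroendocrine cells, had a mean of 0.0209 ± 0.0184, and SOX10, the factor of Schwann cells, of 0.165 ± 0.0262. INSM1, a neuroendocrine transcription factor, was listed at 0.

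**Figure D2:**
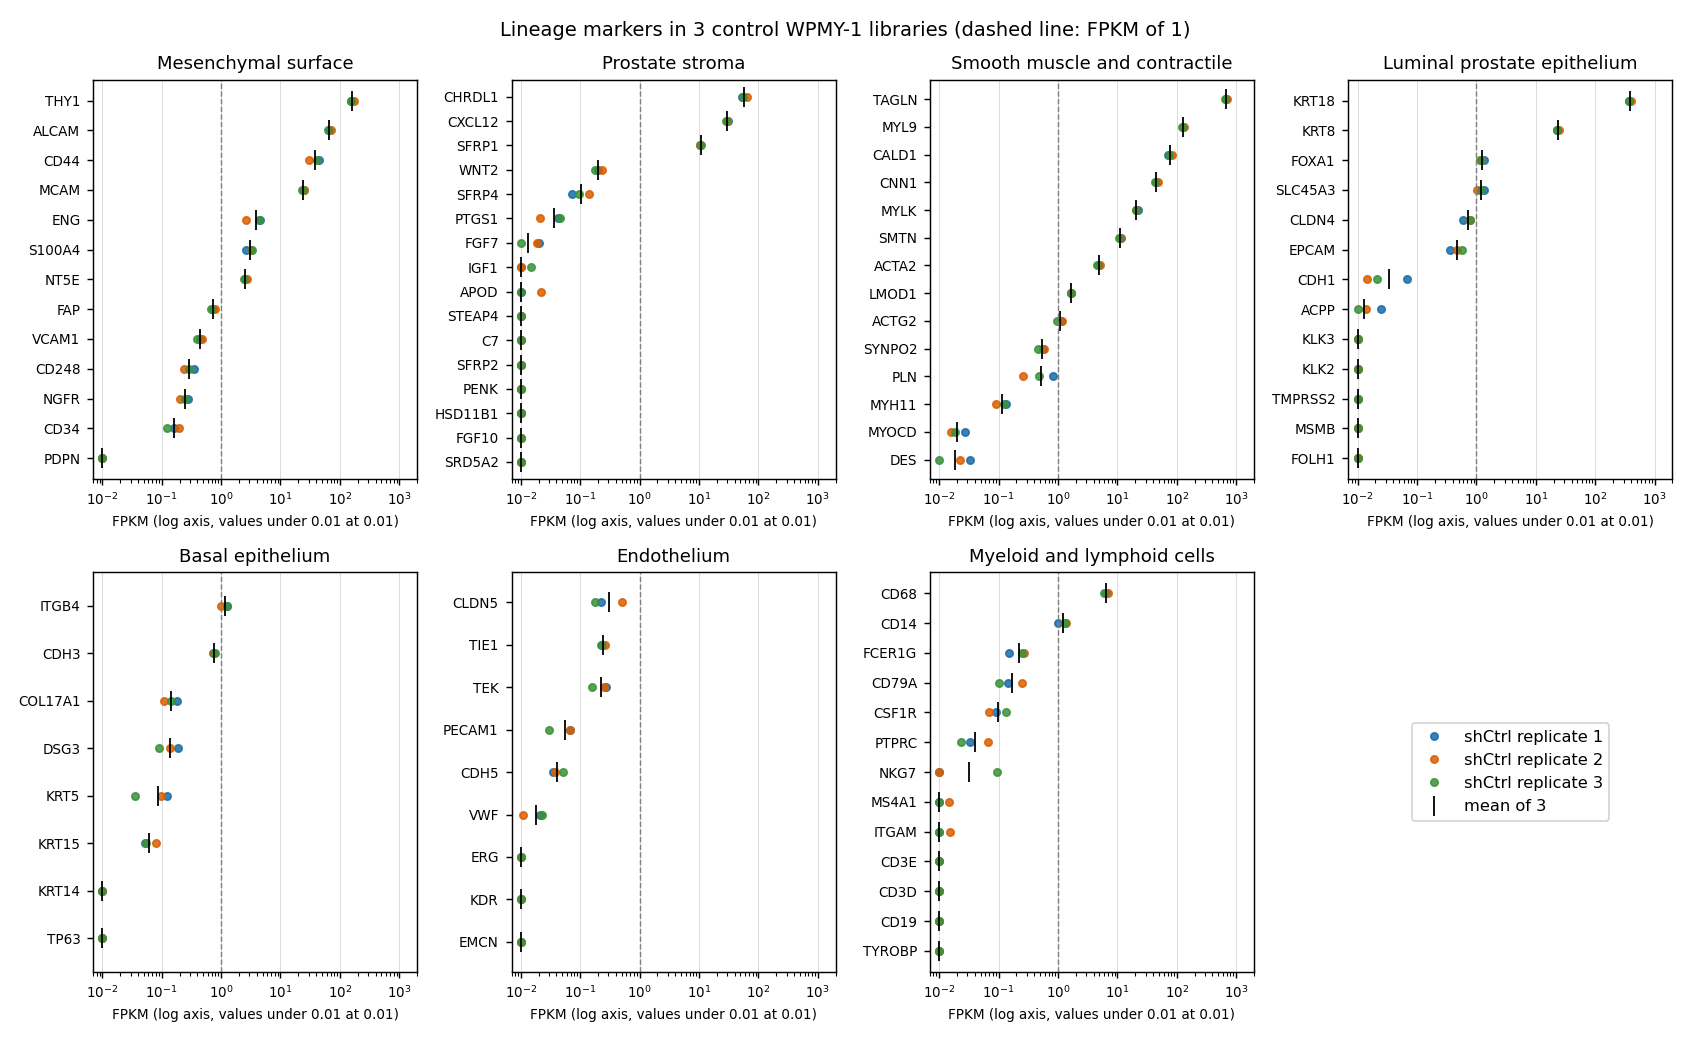
FPKM (log axis, values under 0.01 drawn at 0.01) of marker genes for mesenchymal surface, prostate stroma, smooth muscle and 4 other cell types in the 3 shCtrl libraries (coloured points) with their mean (black tick). THY1 at 160.4, TAGLN at 675 and KRT18 at 385 lie far to the right of the dashed line at an FPKM of 1, whereas no endothelial gene reaches it.

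Contractile genes ranged from some of the most abundant mRNAs to genes near 0. Of 34 genes 27 were expressed (79.4%), and the list held 1.60% of the protein-coding sum. ACTB and ACTG1, the cytoplasmic actins, read 2128, 2077 and 1986 and 978, 1035 and 1014. TAGLN, the actin-binding protein SM22 of smooth muscle and activated fibroblasts, read 664, 713 and 649 and held rank 117 among protein-coding genes. The coefficient of variation of TAGLN over the 3 libraries was 4.94%. MYL9, a regulatory myosin light chain, read 126, 131 and 122, and CNN1, the calponin of smooth muscle, read 44.2, 48.1 and 43.6.

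The classical smooth muscle actin was low by comparison. ACTA2, the alpha actin that marks myofibroblasts, read 4.98, 5.20 and 4.63. TAGLN stood 137 ± 3.45 times above ACTA2 (mean ratio ± SD over the 3 libraries) and ACTB 418 ± 16.6 times. ACTG2, the enteric smooth muscle actin, read 1.12, 1.16 and 0.976, around the threshold of 1. ACTA2 and ACTG2 share long coding stretches with the other actins, so their levels are uncertain.

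Genes known from smooth muscle did not share 1 level. SMTN, the smooth muscle protein smoothelin, read 11.5, 11.02 and 10.46, and LMOD1, an actin nucleator of smooth muscle, read 1.63, 1.64 and 1.64. MYH11, the smooth muscle myosin heavy chain, had a mean of 0.116 ± 0.0236, and DES, the muscle intermediate filament desmin, read 0.0327, 0.0224 and 0. MYOCD, the coactivator that drives the differentiated smooth muscle program, had a mean of 0.0203 ± 0.00601. Its DNA-binding partner SRF was expressed at 14.6, 15.6 and 14.99. MRTFA, a related coactivator that responds to actin, read 7.46, 5.69 and 6.59, and MRTFB read 4.91, 2.72 and 4.21. Both MRTF genes were lowest in replicate 2. The non-muscle myosin MYH9 read 270.4, 237 and 237, more than any other listed heavy chain.

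SRF binds the CArG box, a short element of CC, a run of A and T, and GG. The 250 bases before the annotated start were searched on both strands for the box by its name pattern, in RefSeq windows of GRCh38.p14. Of the 34 contractile genes 28 had a window, and 9 of these 28 (32.1%) held a box, against 240 of all 14805 protein-coding genes with a window (1.62%). The 9 genes were ACTA1, ACTC1, ACTG1, ACTG2, CNN2, TPM4, SMTN, MYLK and SRF. ACTB, TAGLN, MYL9, MYH11, DES and MYOCD had no window and were not searched. ACTA2 had 2 windows, and neither held an exact match. A box with another letter inside its run of A and T was not searched for, so a gene without a match may still have such a box. The mean levels of the 9 genes ran from 0.0573 for ACTA1 to 1009 for ACTG1, so a box stood before genes at both ends of the range. The windows below are shown for an abundant, an intermediate and a low gene with a box, and for CNN1, which has none there. The 250 bases are printed 5′ to 3′ on the strand of the gene, and capitals mark the CArG boxes. ACTG1 lies at chr17:81512800-81513049 on the minus strand, MYLK at chr3:123620549-123620798 on the minus strand, ACTG2 at chr2:73892758-73893007 on the plus strand and CNN1 at chr19:11538601-11538850 on the plus strand.
ACTG1: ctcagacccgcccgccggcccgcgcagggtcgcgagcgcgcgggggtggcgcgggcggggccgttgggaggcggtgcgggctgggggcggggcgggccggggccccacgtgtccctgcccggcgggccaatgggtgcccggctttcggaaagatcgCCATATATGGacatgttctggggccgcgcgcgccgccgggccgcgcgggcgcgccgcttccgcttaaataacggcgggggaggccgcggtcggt
MYLK: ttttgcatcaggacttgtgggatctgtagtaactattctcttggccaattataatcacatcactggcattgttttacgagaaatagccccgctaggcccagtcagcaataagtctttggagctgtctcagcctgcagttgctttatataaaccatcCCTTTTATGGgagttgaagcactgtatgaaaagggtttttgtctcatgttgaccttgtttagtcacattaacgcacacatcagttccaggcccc
ACTG2: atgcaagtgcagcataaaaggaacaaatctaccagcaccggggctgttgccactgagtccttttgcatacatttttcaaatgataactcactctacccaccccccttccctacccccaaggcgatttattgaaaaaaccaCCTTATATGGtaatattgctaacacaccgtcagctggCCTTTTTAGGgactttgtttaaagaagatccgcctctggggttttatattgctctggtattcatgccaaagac
CNN1: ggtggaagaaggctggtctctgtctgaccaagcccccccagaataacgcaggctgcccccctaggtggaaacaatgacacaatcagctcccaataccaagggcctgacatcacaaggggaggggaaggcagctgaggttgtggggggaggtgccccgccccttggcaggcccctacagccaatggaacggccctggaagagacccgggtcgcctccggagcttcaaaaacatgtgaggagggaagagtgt
ACTG1 and MYLK each had 1 box that began 94 bases before the start, and ACTG2 had 2, which began 110 and 73 bases before it. MYLK, the kinase that activates smooth muscle myosin, read 21.9, 20.2 and 20.7 as a whole gene. Only 1 start of MYLK had a window. Which of its transcripts begins there, and whether it encodes the kinase, was not examined. ACTG2, with 2 boxes, was the lowest of the 4 genes, and CNN1, with none in the window, was above MYLK in 3 of 3 libraries. A box is a match of letters and not a shown binding site, and whether these boxes bear on the levels was not tested.

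The intermediate filaments combined vimentin with a pair of keratins of simple epithelia. VIM, the mesenchymal filament vimentin, read 280.4, 309 and 252. KRT18, a keratin of simple epithelia, read 376, 405 and 374 and exceeded VIM in 3 of 3 libraries, by 1.38 ± 0.0894 times. KRT8, the usual partner of KRT18 in keratin filaments, read 22.9, 24.96 and 22.8, so that KRT18 stood 16.4 ± 0.102 times higher. KRT18 has many processed pseudogenes and its exact level is uncertain. KRT80 read 19.5, 17.1 and 17.6, and 11 of the 17 listed keratins were under 1. The lamins of the nuclear envelope were all expressed, with LMNB2 at 132 ± 5.49, LMNA at 108 ± 3.42 and LMNB1 at 59.7 ± 1.29.

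Genes of caveolae were prominent. Of 11 genes 9 were expressed. CAVIN1, the cavin that coats and stabilises caveolae, read 329.6, 347 and 330.3 and held rank 191. CAV1, the main structural caveolin, read 152, 167 and 153, and CAV2, which assembles with it, read 21.4, 27.2 and 22.8. The ranges of CAVIN1, CAV1 and CAV2 did not overlap. The other cavins were far lower, with CAVIN3 at 5.83 ± 0.708, CAVIN2 at 2.25 ± 0.262 and the muscle form CAVIN4 at 0.600 ± 0.00583. EHD2, an ATPase at the neck of caveolae, read 18.9, 10.3 and 16.4 and was lowest in replicate 2.

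Collagens were led by the type I chains, followed by COL5A2 and COL12A1. Of 41 collagen genes 21 were expressed (51.2%, against 58.6% of all protein-coding genes), and they were spread over fibrillar (7 of 11), basement membrane (4 of 8), associated (9 of 18) and membrane (1 of 4) types. COL1A2 read 99.1, 80.4 and 77.1 and COL1A1 read 102, 54.5 and 81.5, the chains that together form the type I trimer. COL1A1 was slightly above COL1A2 in replicates 1 and 3 and below it in replicate 2, with ratios of 1.03, 1.06 and 0.678, so the order of the pair was not resolved. COL5A2, a chain of the collagen that limits fibril width, read 65.6, 68.4 and 63.2. COL12A1, a fibril-associated collagen, read 81.6, 46.6 and 65.96, lowest in replicate 2. COL12A1 was above COL5A2 in replicates 1 and 3 and below it in replicate 2, so their order was not resolved either. COL5A1, the partner chain of COL5A2, was lower at 22.4, 17.3 and 18.2.

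Other collagens were lower. COL3A1, the fibrillar collagen of elastic tissues, read 19.4, 17.8 and 16.7, well under both type I chains in every library. COL4A2 and COL4A1, the general basement membrane chains, read 47.1, 42.2 and 40.2 and 28.1, 25.7 and 24.3. COL4A2 was 1.66 ± 0.0147 times COL4A1, a ratio with little spread. COL6A1, a chain of microfibrillar collagen, read 9.60, 8.68 and 8.88, whereas its partner chain COL6A3 read 21.1, 10.02 and 15.9, with replicate 2 lowest. COL14A1, a fibril-associated collagen of many tissue fibroblasts, had a mean under 0.01 and is drawn at the edge of the matrix plot.

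Adhesive glycoproteins were the most abundant matrix mRNAs. Of 57 matrix glycoproteins 33 were expressed (57.9%). SPARC, a collagen-binding matricellular protein, read 362, 413 and 374, and TGFBI, an integrin-binding protein induced by TGF-beta, read 357, 347 and 321. FN1, fibronectin, read 259.8, 145 and 193, and TNC, tenascin C, read 66.8, 38.9 and 50.7. Both FN1 and TNC were highest in replicate 1 and lowest in replicate 2. CCN1 and CCN2, matricellular targets of YAP signalling, read 94.7, 102 and 91.7 and 82.3, 81.7 and 74.3. Laminins were led by LAMC1 at 35.02 ± 3.97, LAMB1 at 24.7 ± 1.83 and LAMB2 at 24.2 ± 2.30, with LAMA4 the highest alpha chain at 4.26 ± 0.284. Elastic fibre genes were present as FBN2 at 15.7 ± 5.28 and FBN1 at 9.81 ± 1.69, but ELN, the elastin itself, had a mean of 0.0172 ± 0.00582.

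Proteoglycans of the cell surface outweighed those of the matrix. SDC4, a syndecan of focal adhesions, read 137, 154 and 141, and GPC1, a glypican, read 66.2, 65.8 and 61.4. AGRN, the heparan sulfate proteoglycan agrin, read 45.6, 41.6 and 40.3. The leucine-rich proteoglycans that usually mark fibroblasts were low. LUM, lumican, read 4.71, 5.38 and 4.200, BGN, biglycan, read 3.19, 1.91 and 2.41 and DCN, decorin, read 1.57, 1.94 and 1.78. VCAN, the large matrix proteoglycan versican, read 1.67, 1.06 and 1.33. No hyaluronan synthase reached 1.

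The enzymes that fold and crosslink collagen were almost all expressed, 20 of 22. PPIB, a prolyl isomerase, read 343, 393 and 368, and SERPINH1, the collagen chaperone HSP47, read 199, 206 and 194. PLOD2, a lysyl hydroxylase, read 134, 147 and 133. Among the lysyl oxidases that crosslink the fibrils, LOXL1 at 90.2, 92.9 and 89.3 exceeded LOXL2 at 51.3, 43.3 and 51.4 and LOX at 35.8, 25.7 and 32.9 in every library. The median level of the 16 folding and hydroxylation genes was 29.4 FPKM, against 3.77 for the 11 fibrillar collagen chains.

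Of 23 matrix metalloproteases 8 were expressed (34.8%, against 58.6% of all protein-coding genes), led by MMP14, the membrane type I enzyme, at 37.7, 33.4 and 34.6. MMP2, the gelatinase that MMP14 activates, read 10.8, 9.78 and 10.3, and MMP14 was 3.42 ± 0.0656 times higher. The inhibitors TIMP2 and TIMP1 read 76.3, 58.1 and 68.9 and 49.1, 56.1 and 50.7, TIMP2 being higher in 3 of 3 libraries, by 1.04 times in replicate 2 and 1.56 times in replicate 1. Of the plasminogen activators, PLAT read 32.6, 34.4 and 31.2 and PLAU read 11.4, 13.4 and 12.2, PLAT being higher in 3 of 3 libraries.

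**Figure D3:**
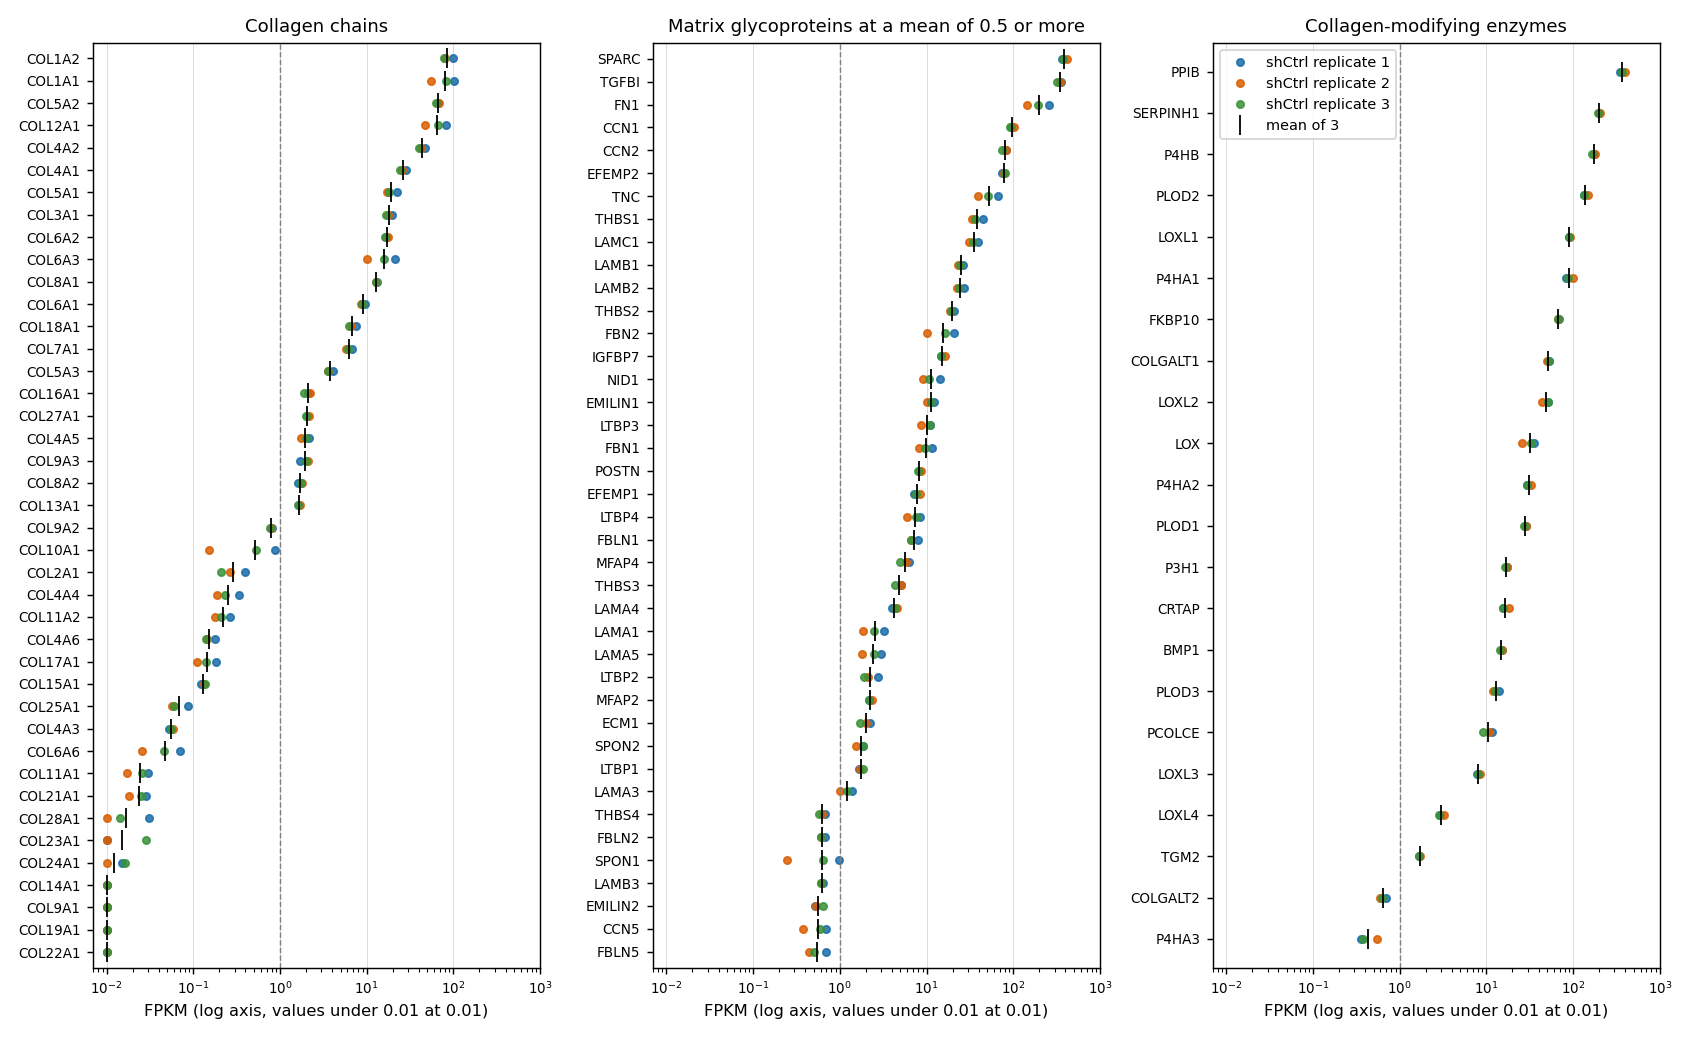
FPKM (log axis, values under 0.01 drawn at 0.01) of all 41 collagen chains, of the matrix glycoproteins with a mean of at least 0.5 and of all 22 collagen-modifying enzymes in the 3 shCtrl libraries (coloured points) with their mean (black tick) and a dashed line at 1. COL1A2, SPARC and PPIB lead their panels at means of 85.5, 383 and 368, and the point of replicate 2 lies to the left for COL1A1, COL6A3, FN1 and FBN2.

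Adhesion receptors centred on 1 beta chain. ITGB1, the integrin beta chain that pairs with most alpha chains, read 562, 666 and 605, and the next beta chain, ITGB5, read 16.1, 16.4 and 16.3. The alpha chains were led by ITGA5, the fibronectin receptor chain, at 38.4, 33.7 and 33.9, then ITGA3 at 30.8, 30.02 and 27.9 and ITGAV at 27.9, 26.5 and 26.5. ITGA5 was above ITGAV in 3 of 3 libraries. Among cadherins, CDH2, the N-cadherin of mesenchymal cells, read 54.4, 54.1 and 51.8, and CDH11, a fibroblast cadherin, read 7.74, 7.34 and 7.18. CDH1, the epithelial cadherin, read 0.0678, 0.0143 and 0.0212.

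Mesenchymal transcription factors were led by TWIST2. TWIST2 read 34.8, 35.3 and 30.7 and TWIST1 read 6.18, 6.90 and 7.13; both are basic helix-loop-helix factors of mesenchyme, and TWIST2 was 5.02 ± 0.668 times higher. NR2F2, an orphan nuclear receptor of stromal cells, read 15.6, 12.2 and 13.1, and TBX3, a T-box factor, read 12.7, 11.8 and 11.4. Both, and RUNX1 at 13.5, 9.07 and 11.6, stood above TWIST1 in every library. ZEB1 and SNAI2, repressors of epithelial genes, read 3.95, 4.06 and 3.91 and 1.58, 1.35 and 1.49. PRRX1, a homeobox factor of many fibroblasts, had a mean of 0.0153 ± 0.0113, although its relative PRRX2 read 3.38, 4.42 and 3.67. Of the 29 factors 18 were expressed.

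The HOX genes, which record position along the body axis, were expressed at 21 of 39 (53.8%), a share near the 58.6% of all protein-coding genes. Cluster A held the highest members. HOXA10 read 13.0003, 15.3 and 13.4, HOXA9 read 10.05, 12.5 and 10.4 and HOXA13, the last gene of the cluster, read 8.99, 9.13 and 8.96. Only HOXA10 and HOXA9 reached a mean of 10. The last genes of clusters B and D did not follow HOXA13: HOXB13, a factor of prostate epithelium, had a mean of 0.0332 ± 0.0160, and HOXD13 of 0.209 ± 0.122. In clusters B, C and D the highest were HOXB2 at 9.96 ± 0.439, HOXC6 at 7.31 ± 0.432 and HOXD8 at 4.29 ± 0.723.

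Receptor tyrosine kinases were expressed at 26 of 57 (45.6%), and 1 stood apart. AXL, the receptor for the ligand GAS6, read 153, 155 and 149, with a coefficient of variation of 1.89%. Its ligand GAS6 read 40.97, 42.5 and 40.1. PTK7 and RYK, pseudokinase receptors linked to Wnt signalling, read 44.7, 43.8 and 42.8 and 39.4, 46.6 and 41.3; their order differed between libraries. DDR2, a collagen-binding receptor, read 38.6, 35.2 and 37.5. Thus AXL was at least 3 times the next receptor in every library.

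Growth factor receptors of fibroblasts lay lower. FGFR1 read 20.7, 19.95 and 19.4, MET, the receptor of hepatocyte growth factor, read 15.8, 15.3 and 15.7, and EGFR read 18.6, 10.9 and 14.98. EGFR was lowest in replicate 2, where MET was higher, while in replicate 1 EGFR was the higher of these 2. PDGFRB, a platelet-derived growth factor receptor, read 14.8, 12.4 and 12.4, and PDGFRA, the form typical of tissue fibroblasts, read 0.598, 0.637 and 0.524, a ratio of 22.7 ± 2.77. KIT, the stem cell factor receptor, read 9.70, 8.87 and 9.22 and its ligand KITLG 3.46, 3.71 and 3.75. IGF1R read 8.59, 3.93 and 6.67 and IGF2R, a receptor that clears IGF2, read 20.4, 9.61 and 15.6, both lowest in replicate 2. No receptor of the VEGF and angiopoietin group reached 1.

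Nuclear receptors were expressed at 22 of 48 (45.8%). NR2F6, an orphan receptor, read 42.4, 41.9 and 41.1, and NR1H2, the oxysterol receptor LXR beta, read 35.7, 35.8 and 36.4. NR3C1, the glucocorticoid receptor, read 25.7, 23.9 and 23.3. ESR1, the estrogen receptor alpha, read 0.181, 0.204 and 0.173, and PGR, the progesterone receptor, had a mean of 0.0204 ± 0.0154. Depth behind such low values is unknown, so low expression cannot be told from stray fragments.

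**Figure D4:**
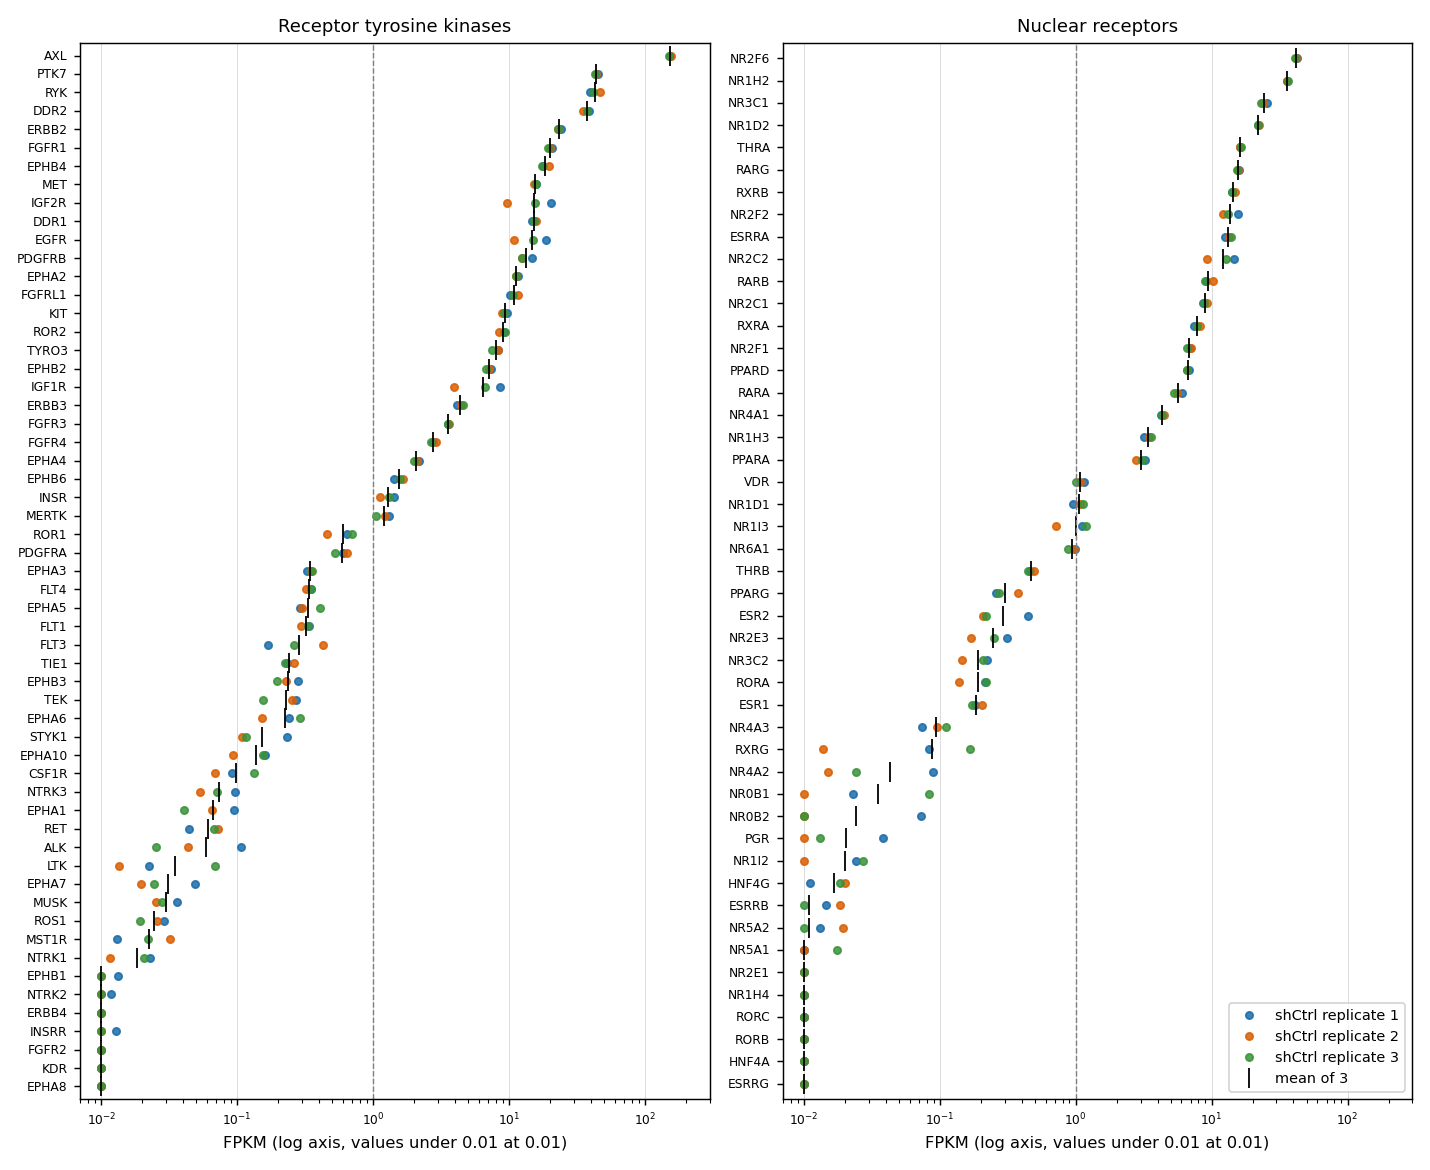
FPKM (log axis, values under 0.01 drawn at 0.01) of receptor tyrosine kinases and nuclear receptors in the 3 shCtrl libraries (coloured points) with their mean (black tick) and a dashed line at 1. AXL leads the kinases at a mean of 152 and NR2F6 the nuclear receptors at 41.8, and PDGFRA lies left of the line at 0.586.

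Steroid enzymes were expressed at 7 of 24 (29.2%). SRD5A1, the type 1 steroid 5-alpha reductase, read 9.74, 10.6 and 10.3, whereas SRD5A2, the form known from prostate stroma, was listed at 0 in all 3 libraries. SRD5A3, a relative that acts in glycosylation, read 3.67, 4.12 and 3.80. The highest of the list was HSD17B10, a mitochondrial dehydrogenase, at 52.01, 60.5 and 56.2.

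In the TGF-beta superfamily 34 of 55 genes were expressed (61.8%). Of the ligands, TGFB2 at 24.2, 23.4 and 21.997 exceeded TGFB1 at 6.99, 6.27 and 6.53 in every library, and GDF5, a ligand of joint and connective tissue, read 25.8, 27.1 and 23.2. Of 12 antagonists 8 were expressed, and most of their summed level came from FSTL1. FSTL1, a follistatin-like glycoprotein, read 453, 525 and 459.7, and GREM1, an inhibitor of bone morphogenetic proteins, read 33.3, 35.2 and 34.6. The receptor chain TGFBR1 read 26.02, 24.1 and 26.9 and its partner TGFBR2 read 4.57, 4.16 and 4.204. All 8 SMAD genes were expressed, led by SMAD2 at 33.9, 33.5 and 33.9. SMAD3 read 19.9, 13.5 and 18.02 and was lowest in replicate 2.

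Growth factor ligands were expressed at 28 of 65 (43.1%). MDK, the heparin-binding factor midkine, led with 211, 235 and 215, 111 ± 4.82 times its relative PTN. FGF2 read 16.8, 16.9 and 16.7, PDGFC 17.3, 18.5 and 17.8, VEGFA 16.4, 16.8 and 16.5 and NRG1, a ligand of ERBB receptors, 15.9, 15.2 and 13.2. These 4 ligands lay in a narrow band, in which the ranges of FGF2 and VEGFA overlapped. The classical stromal ligands of prostate epithelium were low: FGF7 had a mean of 0.0132 ± 0.0115, HGF of 0.285 ± 0.0562 and IGF1 of 0.00832 ± 0.00592, and FGF10 was listed at 0. IGF2 had a mean of 0.0275 ± 0.0119. Binding proteins of the insulin-like growth factors were nevertheless abundant, with IGFBP6 at 76.2, 79.8 and 80.1 and IGFBP3 at 56.7, 65.3 and 57.6.

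Cytokines, chemokines and their receptors were expressed at 27 of 71 (38.0%, against 58.6% of all protein-coding genes). IL11, a cytokine of fibroblast activation, read 10.47, 12.6 and 11.9, and LIF, of the same family, read 7.58, 8.01 and 7.52. IL6 had a mean of 0.237 ± 0.0632 and CXCL8, the neutrophil chemokine, of 0.252 ± 0.0663. CCL2, the monocyte chemokine, read 9.44, 13.1 and 10.1 and was highest in replicate 2. Of 21 cytokine receptors 16 were expressed, and of 12 chemokine receptors 2 were. TNFRSF12A, the receptor of the cytokine TWEAK, read 220.2, 253 and 238, and IL6ST, the signal chain shared by IL11, LIF and IL6, read 40.7, 44.6 and 43.1. IL6R, the chain specific for IL6, had a mean of 0.453 ± 0.0421.

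Among the Wnt, Notch and Hedgehog genes 24 of 64 were expressed (37.5%). Only 2 of 19 Wnt ligands were, and both belonged to the non-canonical WNT5 pair. WNT5A read 56.3, 50.1 and 51.9 and WNT5B read 24.2, 24.2 and 24.3, a ratio of 2.18 ± 0.132. WNT5B was among the 10 genes with the smallest spread of all 6190 protein-coding genes at a mean of at least 10. The antagonists DKK3 and DKK1 read 141, 155 and 147 and 85.1, 101 and 81.4, above every Wnt ligand. FZD6, a Frizzled receptor, read 23.6, 26.02 and 23.6. NOTCH2 read 39.2, 26.3 and 33.2 and its ligand JAG1 6.04, 5.56 and 5.29. HES1, a Notch target, read 5.31, 10.4 and 5.57 and was highest in replicate 2. SMO, the signal transducer of Hedgehog, read 14.5, 14.3 and 15.1, but its target GLI1 had a mean of 0.560 ± 0.0332.

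G protein-coupled receptors for hormones and lipids were expressed at 16 of 40, and 3 reached a mean of 10. F2R, the thrombin receptor, read 47.8, 51.3 and 45.3, and LPAR1, a lysophosphatidic acid receptor, read 8.65, 8.74 and 8.198. OXTR, the oxytocin receptor of smooth muscle, read 3.80, 4.08 and 3.77. AGTR1 and EDNRA, the angiotensin and endothelin receptors of contractile cells, had means of 0.311 ± 0.0783 and 0.232 ± 0.0412.

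All 82 cell cycle genes were expressed, and they held 1.12% of the protein-coding sum. TK1, thymidine kinase, read 312, 331 and 319, and PCNA, the sliding clamp of DNA polymerases, read 268, 336 and 309. CDK1, the mitotic kinase, read 146, 180.1 and 153, and TOP2A, the mitotic topoisomerase, read 147, 168 and 149. PCNA and CDK1 were highest in replicate 2. MKI67, the proliferation antigen, read 36.5, 19.9 and 30.1 and was lowest in replicate 2, the opposite order. All 31 genes of S phase and licensing and all 25 of G2 and M had means of at least 10.

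The brakes of the cycle were expressed alongside. CDKN2A, which encodes the inhibitors p16 and p14ARF, read 219, 242 and 219.5, the highest of the 12 brakes. CDKN1A, the cyclin-dependent kinase inhibitor p21, read 31.1, 33.8 and 29.5, so that CDKN2A stood 7.21 ± 0.200 times above it. RB1, the retinoblastoma protein, read 22.2, 22.2 and 20.7. WPMY-1 was immortalised with a viral large T antigen, which binds the RB1 protein, and the deposited rows are human genes. CCND1, a cyclin of G1, read 16.4, 15.8 and 16.2. TERT, the catalytic subunit of telomerase, was under 1 at 0.224, 0.262 and 0.178, although the telomerase-associated proteins NOP10, NHP2 and DKC1 had means of 126 ± 7.11, 117 ± 10.50 and 39.4 ± 2.44.

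Growth and survival factors were expressed at 37 of 42. MYC read 64.6, 75.1 and 58.97, and JUN, an AP-1 subunit, read 74.01, 87.9 and 71.4, both highest in replicate 2. YAP1, the effector of the Hippo pathway, read 45.5, 42.8 and 44.4, and its DNA-binding partner TEAD1 read 53.8, 37.5 and 45.8. MCL1 and BCL2L1, anti-apoptotic proteins, read 66.1, 71.3 and 68.99 and 35.2, 35.8 and 35.2, whereas BCL2 had a mean of 0.744 ± 0.103.

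Many genes of glycolysis, of chaperones and of iron, redox and metal binding were high. GAPDH and PKM, enzymes of glycolysis, read 2770.4, 3072 and 2868 and 789.7, 858 and 835, and 20 of 22 genes of the list were expressed, with 1.85% of the protein-coding sum. LDHA read 325, 362 and 359 and LDHB 368, 444 and 401, with LDHB above LDHA in every library. All 30 chaperones were expressed, 20 of them at a mean of at least 100, led by HSPA8 at 588, 717 and 626. The lowest of them, DNAJB9, read 5.38, 6.27 and 5.60. HSPA5, the chaperone of the endoplasmic reticulum, read 54.7, 35.5 and 49.3, lowest in replicate 2. FTL, the ferritin light chain, read 1170.0, 1381 and 1157, and the metallothionein MT2A read 588, 648 and 568. FTH1, the heavy chain, read 321, 321 and 324. Ferritins have many pseudogenes and these levels are uncertain. Of the 32 genes on the list that holds FTL, 14 had a mean of at least 100, whereas HMOX1 read 2.49, 2.96 and 2.38.

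Antigen presentation was of class I. All 11 class I pathway genes were expressed. B2M, the light chain of class I molecules, read 462, 531 and 466. Of 10 class II genes 2 were expressed, and HLA-DRA was listed at 0 in all 3 libraries. CD274, the PD-L1 ligand, read 1.42, 1.46 and 1.32.

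The spread over the 3 libraries was small for most genes. The median coefficient of variation of the 11227 expressed protein-coding genes was 7.02%, and it fell to 3.93% without replicate 2. Without replicate 3 it was 7.90%. It was 10.4% for genes with a mean from 1 to 2 and 6.08% for those from 10 to 30. PSMD5, a proteasome assembly factor, had the smallest spread of genes at a mean of at least 10, with 16.11, 16.13 and 16.12 FPKM.

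Replicate 2 stood apart by transcript length. Among 952 expressed genes whose longest annotated transcript was 8 kb or more, 67.6% were lowest in replicate 2, and among 419 genes under 1 kb 7.4% were. Log2 ratios to the mean of the 3 libraries were taken with 0.5 FPKM added to both values. Their median was -0.10 for the long genes in replicate 2 and 0.11 for the short ones. In replicate 1 the order was the reverse, with 0.09 and -0.08. Across 11194 genes, Spearman's rho of length with this log2 ratio was 0.44 in replicate 1, -0.43 in replicate 2 and 0.14 in replicate 3. Genes are not independent, and these values only describe the libraries.

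**Figure D5:**
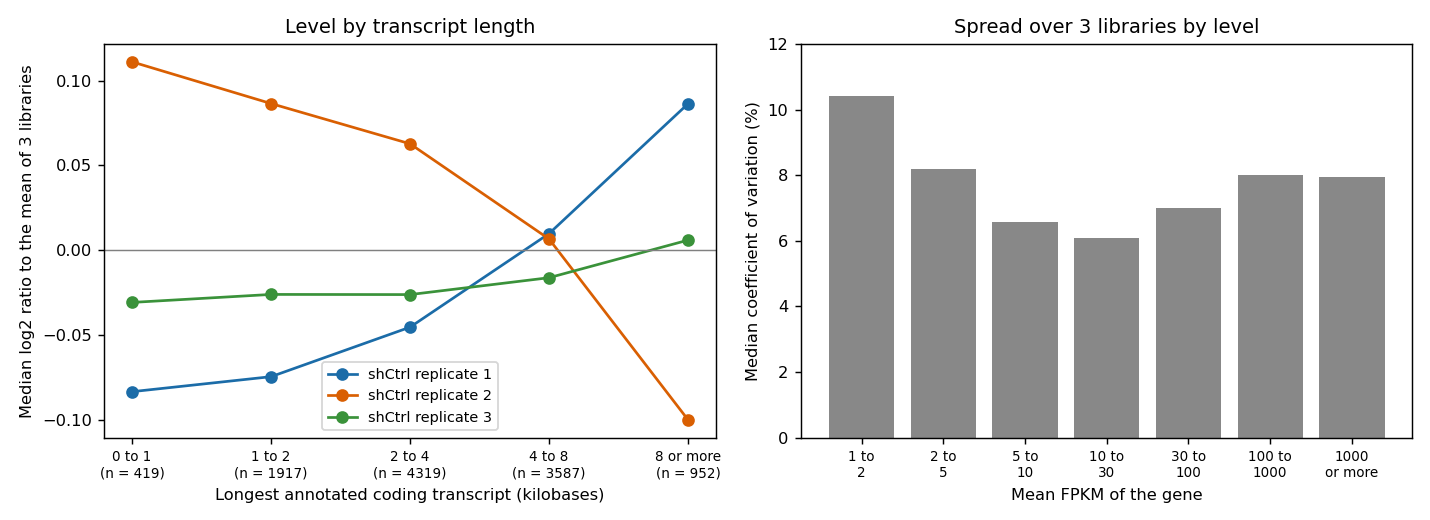
Left, the median log2 ratio of a gene's FPKM to the mean of the 3 libraries, with 0.5 added to both values. It is drawn for each shCtrl library by length of the longest annotated coding transcript (kilobases). The line of replicate 2 falls from 0.11 to -0.10 and that of replicate 1 rises from -0.08 to 0.09. Right, bars of the median coefficient of variation (%) by mean FPKM of the gene, highest at 10.4% for genes from 1 to 2 FPKM.

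The same held for the genes described here. Of the 756 expressed list members, 25 were more than 25% lower in replicate 2 than in both other libraries, a limit set after the values were seen. The values were not scaled to an equal protein-coding sum. Of these 25, 19 had a longest transcript of at least 5 kb, against 144 of the 721 members that were neither lower nor higher by that limit. These 19 included COL1A1, COL12A1, COL6A3, FBN2, LAMA5, HSPG2, EGFR, IGF1R, IGF2R, MKI67, CDK6, GLI3 and CD44. The other 6 were NR1I3, ACVR1, ENG, PABPC1, EHD2 and HSPA5. Another 10 members were more than 25% higher in replicate 2, among them HES1, CCL2, FOS and DDIT3 and, with a longest transcript over 5 kb, FGF13 and RPL37. FN1 at 259.8, 145 and 193 and TNC at 66.8, 38.9 and 50.7 fell just outside the limit. The part of transcript length in these differences was not tested. Length here is that of the longest annotated coding transcript, which need not be the one expressed, for RPL37 as for any other gene.

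Genes outside the lists showed the largest spreads. POLR2A, the large subunit of RNA polymerase II, read 19.03, 5.78 and 13.97, and KMT2A, a histone methyltransferase, read 16.6, 7.34 and 12.03. LPP, a focal adhesion protein, read 14.6, 5.39 and 11.5. Each was highest in replicate 1 and lowest in replicate 2. Of the 100 most variable protein-coding genes at a mean of at least 10, 98 were lowest in replicate 2, and their median longest transcript was 7496 bases against 3078 over all 6190 genes. The histone HIST1H4J, one of the near-identical H4 genes, read 152, 38.5 and 138, also lowest in replicate 2, although its transcript is short.

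Promoter sequence differed between genes of different level. The 250 bases before the start of 14805 protein-coding genes were read from the RefSeq windows of GRCh38.p14. The ratio of observed to expected CG pairs, a measure of CpG islands, had a median of 0.248 over 1891 genes listed at 0 in all 3 libraries. It was 0.479 for genes above 0 and under 1, 0.774 from 1 to 10, 0.837 from 10 to 100 and 0.863 over the 474 genes at 100 or more. The letters TATAAA on either strand occurred in 24.4% of genes listed at 0, 15.9% of those under 1, 7.40% and 6.54% of the middle groups and 9.70% of those at 100 or more, against 11.6% of all. CArG boxes showed no such gradient, at 1.75% of genes listed at 0 and 2.32% at 100 or more. These shares are descriptions, and related genes with shared promoters are not independent.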

How the data were processed

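Per the labels' protocols, TRIzol was used for extraction and a stranded Illumina total RNA kit for library preparation. The authors deposited 1 table of FPKM values per gene symbol. The submitters' processing notes name GRCh38 as the build, and CASAVA, bcl2fastq 2.17.1.14, TopHat and TopHat2 as tools, the last with version 2.2.5. Quantifier, annotation and strandedness of counting were not given in the sources used here. Columns of the other group, 3 in number, were not read. The top 10 rows held 21.1% to 42.5% of the FPKM sum of a library. A share of the FPKM sum is not a share of fragments. How far these RNAs lowered the FPKM of other genes is therefore not known. Absolute depth is unknown. Low values, taken as single fragments, put replicates 1 and 3 at about 1.15 and 0.707 times the depth of replicate 2. No counting interval can be given.

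Gene classes came from GENCODE 29 (22833 rows) and RefSeq (2504 rows) by symbol or synonym; 4676 rows matched neither, and 3104 were further copies of a gene. Means, SDs, coefficients of variation and ranks were computed with pandas 2.3.3 in Python 3.11.15, after a check on simulated data. The 30 gene lists (1239 genes, 97 roles) were chosen with earlier results of these data known. Named genes were the 25 highest protein-coding rows, the 8 highest other rows, the key members and 3 highest of each role, and the 10 most and 10 least variable at a mean of at least 10. The text gives a part of these, and it adds other list members, further long noncoding RNAs and the histones, chosen after their values were seen. Some list members are counted but not reported by name here.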

Additional observations from a re-analysis of the deposited data

How the results depend on the processing

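The counts of expressed genes changed little with the alternatives. Without 1 replicate, the count of protein-coding genes lay between 11215 and 11251 and that of all rows between 12570 and 12643. With a threshold of 2 FPKM in place of 1, the markers of other cell types fell from 11 to 7. Leaving out rows under a mean of 1 gave the G protein-coupled receptors 0.0264% of the protein-coding sum in place of 0.0275%, and the HOX genes 0.0237% in place of 0.0244%. These 2 moved by more than their SD, and the other 39 shares did not when those rows were left out. The rest of the 205 settings tried for shares left out 1 replicate or took the median over libraries. With 3 libraries, neither can move a mean by more than its SD, so no conclusion is drawn from them. Without 1 replicate, the median coefficient of variation lay between 3.93% and 7.90%, the lowest being without replicate 2. Rescaling to TPM, which multiplies every gene of a library by the same factor, moved 282 of 389 named genes by more than their SD. Ratios to the FPKM mean ran from 0.958 to 1.32, with a median of 1.13. This change of unit does not tell which genes depend on the processing. An equal protein-coding sum moved 6 of the 389 named genes, and a mean of log2 values with a pseudocount of 0.5 or 0.1 moved 1. No paired analysis was possible because the results come from 1 group and from no test.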

Other observations

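Several long noncoding RNAs that the comparisons above do not use were well expressed; they were chosen after their values were seen. SNHG5, a host gene of small nucleolar RNAs, read 217, 259 and 222 FPKM in replicates 1, 2 and 3, and SNHG1, another host gene, read 136, 168 and 143. GAS5, a host gene linked to growth arrest, read 97.4, 125 and 101. All 3 host genes were highest in replicate 2. NEAT1, the scaffold of nuclear paraspeckles, read 54.9, 31.6 and 54.6 and was lowest there. Of the imprinted RNAs, MEG3 read 23.6, 21.7 and 21.7, whereas H19 had a mean of 0.0302 ± 0.0251 (SD, n = 3). HOTAIR, from the HOXC cluster, had a mean of 1.07 ± 0.120.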
